A study of Mus musculus with 7 samples.

Results

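This account covers 10 mouse genes for C-type lectin receptors, Clec4e, Clec4d, Clec4n, Clec7a, Clec5a, Clec4a1, Clec4a2, Clec4a3, Clec12a and Clec2d, in bone-marrow-derived macrophages (BMDMs). The 10 were taken by gene symbol, and each symbol was found in both deposited tables, of 48440 genes for the LPS experiment and 55352 genes for the AAV experiment. In the LPS experiment, wild-type BMDMs were sequenced without treatment (0 h) or after 2 h or 4 h with lipopolysaccharide (LPS, the bacterial surface glycolipid sensed by TLR4) at 100 ng per mL, with 1 library per time point. In the AAV experiment, BMDMs carried an adeno-associated virus (AAV) for 48 h that delivered either Shisa3, a gene for a transmembrane protein, or green fluorescent protein (GFP), with 2 samples per group. The cells of both experiments were grown from bone marrow of C57BL/6 mice in medium with M-CSF, the growth factor that drives macrophage differentiation. The AAV was of serotype 1 and its insert was driven by the ubiquitous CAG promoter, so both AAV groups share the virus, and an untransduced group was not analysed here. Nothing in the sources used here says whether the replicates came from separate mice or cultures, so the p-values below measure only the spread between these samples, which may be technical. Young adult mice of both sexes, 6 to 12 weeks of age, were used in the study, and the age of the bone marrow donors is not given separately.

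C-type lectin receptors are surface proteins with a sugar-binding fold, and in macrophages many of them recognise fungi, mycobacteria or material from dead cells. The activating members signal through the tyrosine kinase Syk and the adaptor CARD9 to NF-κB. Mincle (Clec4e), its partner MCL (Clec4d) and Dectin-2 (Clec4n) use the adaptor FcRγ (Fcer1g), Dectin-1 (Clec7a), the receptor for fungal β-glucan, carries its own signalling motif, and MDL-1 (Clec5a) uses the adaptors DAP12 (Tyrobp) and DAP10 (Hcst). DCIR (Clec4a2) and MICL (Clec12a) carry inhibitory motifs that recruit phosphatases, Clec4a1 and Clec4a3 are close relatives of DCIR, and Clec2d is a ligand of an inhibitory receptor of natural killer cells.

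All 10 genes lie on chromosome 6. In the GENCODE M21 annotation of GRCm38, 6 of them lie in 1 stretch of 368 kb (chr6:122921848-123289870) in the order Clec4a1, Clec4a3, Clec4a2, Clec4n, Clec4d and Clec4e, and 3 lie in a stretch of 292 kb (chr6:129180615-129472779) in the order Clec2d, Clec12a and Clec7a. Clec5a (chr6:40574894-40585821, minus strand) lies apart from both, 82.3 Mb before Clec4a1. Clec4e (ENSMUSG00000030142.10, chr6:123281789-123289870, minus strand) and Clec4d (ENSMUSG00000030144.4, chr6:123262111-123275265, plus strand) are next to each other, with 0.0065 Mb between them, and are transcribed towards each other. Clec7a (ENSMUSG00000079293.11, chr6:129461591-129472779, minus strand) is typed as a polymorphic pseudogene in the LPS table and in GENCODE. No exon of the 10 overlaps an exon of another gene. Of the 50-base stretches in its longest transcript, Clec4a2 shares 8.14% with other genes, the largest share in the group, and Clec4a4 alone accounts for 4.69%, so some reads of Clec4a2 could be counted for a relative. The share was 1.98% for Clec2d, 0.81% for Clec4n, 0.69% for Clec12a and 0 for the other 6.

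The sequence just before the start site is shown for the 4 receptors on which the results below turn most: Clec4e, the gene with the largest fold under LPS, Clec4d beside it, and Clec7a and Clec5a, which passed the test in the AAV experiment. Each is the 250 bases before a RefSeq start site on GRCm38.p6, written 5′ to 3′ in the direction of transcription. Capitals mark matches, on either strand, to the letters GAGGAA, the core bound by the macrophage factor PU.1, or TTGCNNAA, bound by C/EBP factors.
Clec4e (chr6:123289872-123290121, minus strand): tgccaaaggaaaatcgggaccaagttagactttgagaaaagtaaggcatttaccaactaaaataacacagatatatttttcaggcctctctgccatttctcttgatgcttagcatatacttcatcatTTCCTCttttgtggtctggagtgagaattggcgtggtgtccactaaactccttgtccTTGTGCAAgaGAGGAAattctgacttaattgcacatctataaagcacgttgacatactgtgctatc
Clec4d (chr6:123261857-123262106, plus strand): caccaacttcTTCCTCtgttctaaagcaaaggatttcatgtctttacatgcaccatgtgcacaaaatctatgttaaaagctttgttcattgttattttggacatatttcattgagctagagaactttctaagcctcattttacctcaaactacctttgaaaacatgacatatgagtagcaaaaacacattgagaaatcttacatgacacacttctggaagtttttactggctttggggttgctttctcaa
Clec7a (chr6:129472780-129473029, minus strand): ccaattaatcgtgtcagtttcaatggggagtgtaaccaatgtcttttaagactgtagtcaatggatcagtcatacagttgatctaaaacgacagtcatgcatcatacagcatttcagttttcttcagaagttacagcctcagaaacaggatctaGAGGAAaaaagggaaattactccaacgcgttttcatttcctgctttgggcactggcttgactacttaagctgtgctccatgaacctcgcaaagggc
Clec5a (chr6:40585806-40586055, minus strand): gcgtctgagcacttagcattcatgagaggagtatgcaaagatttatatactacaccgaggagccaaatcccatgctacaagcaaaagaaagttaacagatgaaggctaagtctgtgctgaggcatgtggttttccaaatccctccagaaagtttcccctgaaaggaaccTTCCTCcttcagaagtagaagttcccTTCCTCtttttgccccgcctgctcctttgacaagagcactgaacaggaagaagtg
RefSeq windows were matched for 9 of the 10 receptors, 11 windows in all, since Clec4a3 and Clec7a have more than 1 start site. Matches are counted per gene, in any of its windows, among 27025 genes. GAGGAA was present in 7 of the 9 receptors (Clec4e, Clec4d, Clec7a, Clec5a, Clec4a1, Clec4a3 and Clec12a), and 25.9% of all genes held it. For Clec4a3 only 1 of its windows held it. TTGCNNAA was present in 2, in Clec4e from 66 to 59 bases before the start and in Clec12a, and 10.8% of all genes held it. In Clec4e the C/EBP letters and a GAGGAA match from 56 to 51 bases before the start stood within a few bases of each other. The NF-κB motif was found in 0 of the 9 receptors against 4.46% of all genes, the AP-1 letters TGANTCA in Clec12a alone (7.82% of all) and the core of the interferon-stimulated response element in Clec2d alone (3.46% of all). These matches describe letters within 250 bases and do not show binding.

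The values of the LPS experiment were read counts divided by 1 factor per library, from which 15588502, 7263258 and 32659392 reads were recovered at 0 h, 2 h and 4 h. The AAV values were read as TPM, a measure scaled by transcript length and by the sample's total, because each sample's values total just under the sum that TPM has; the table does not name its unit, and the depth is unknown. Of the macrophage markers 8 of 8 passed the minimum level in both tables, led by Csf1r and Adgre1. Adgre1, which encodes F4/80, was the highest in the AAV samples at 2538 to 2920 TPM. Markers of lymphocytes and natural killer cells summed to 0.17 to 0.62 TPM, with 4 of 8 at 0 in every AAV sample, those of dendritic cells to 3.30 to 4.24 TPM with Ccr7 the highest, and those of fibroblasts to 10.0 to 17.1 TPM with Col1a2 the highest. Shisa3 itself was at 7.88 and 10.85 TPM in AAV-GFP and at 12.31 and 17.81 TPM in AAV-Shisa3, a log2 fold change of 0.63 (SE 0.22) that did not pass the test (limma, adjusted p = 0.138).

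In unstimulated BMDMs the receptors differed widely in level. On the scale of deposited value per kb of exon, Clec4d was the highest at 2521, followed by Clec4a3 at 1076, Clec2d at 1028 and Clec7a at 906. Clec4e stood at position 9 of the 10 at 118 per kb, above Clec5a alone, which stood at 87.9. The order in the middle rests on single libraries, and Clec4a2 at 471 and Clec4n at 452 were the closest neighbours.

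The most abundant receptor per kb of exon was Clec4d at 0 h and 2 h and Clec4e at 4 h of LPS. The 4 h order of these 2 rests on the exon lengths used, 4965 bases for Clec4e and 1599 for Clec4d. By the longest transcript of each, 4804 and 1323 bases, Clec4d stayed above Clec4e at 4 h. Clec4e, the receptor for mycobacterial cord factor, exceeded its 0 h level 20.5-fold after 2 h and 63.0-fold after 4 h. Its deposited value was 583 at 0 h (907 reads), 11964 at 2 h (5479 reads) and 36774 at 4 h (67673 reads). The 95% exact binomial intervals of these folds were 19.1 to 22.0 and 59.0 to 67.4. These intervals cover counting error only, and with 1 library per time point no difference here has a replicate check or a p-value. On the log2(value + 1) scale the changes were 4.36 and 5.98, and the 4 h change was number 121 from the top of the 17854 genes that reached a mean value of 1. With reads scaled to equal library totals, the folds of Clec4e were 13.0 and 35.6.

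**Figure D1:**
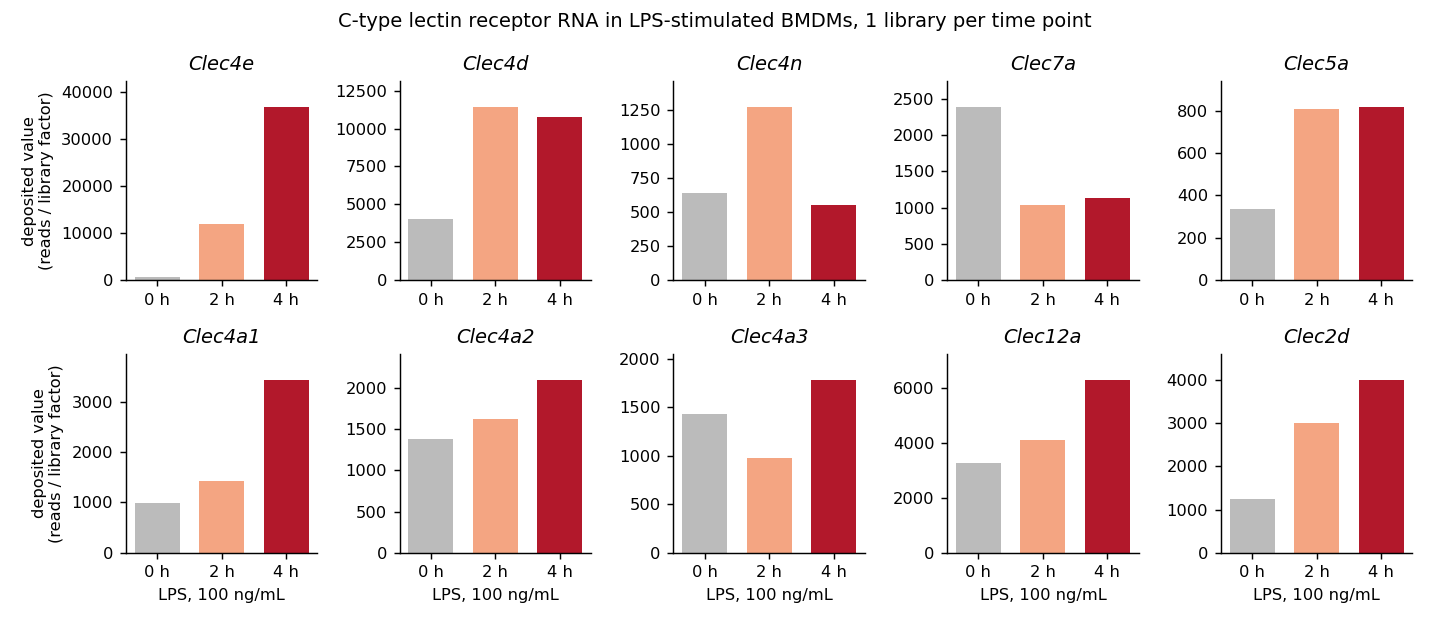
Deposited value (reads divided by a library factor, vertical axes from 0, each with its own range) of the 10 receptors at 0 h, 2 h and 4 h of LPS, 1 bar per library. Clec4e is at 583 at 0 h and at 36774 at 4 h, Clec7a is highest at 0 h, and Clec4n is highest at 2 h; with reads scaled to equal totals, Clec4a1, Clec4a2 and Clec12a at 2 h and Clec4a2 and Clec4a3 at 4 h lie on the other side of their 0 h value, as does Clec4n at 4 h with median centring.

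Among the receptors that pair with FcRγ, the 3 neighbours Clec4e, Clec4d and Clec4n followed different courses. Clec4d was at 4031, 11418 and 10781 at 0 h, 2 h and 4 h, 2.83-fold the 0 h value at 2 h (2.73 to 2.94) and 2.67-fold at 4 h (2.60 to 2.75). With equal totals these folds of Clec4d were 1.79 and 1.51. In the deposited values Clec4d thus reached its level by 2 h, while Clec4e was a further 3.07-fold higher at 4 h than at 2 h (2.99 to 3.16). Clec4n was at 642, 1269 and 553, 1.98-fold at 2 h (1.78 to 2.19) and 0.861-fold at 4 h (0.788 to 0.940), and this last direction depended on the scaling, with a log2 change of 0.16 with median centring and of -1.04 with equal totals. At 4 h Clec4n stood at 0.436 of its 2 h value (0.393 to 0.483). Per kb of exon, the ratio of Clec4e to Clec4d was 0.0466 at 0 h, 0.337 at 2 h and 1.10 at 4 h. Clec4e made up 1.49% of the summed per-kb value of the 10 receptors at 0 h, 14.6% at 2 h and 31.0% at 4 h, while Clec4d made up 32.0%, 43.3% and 28.2%. These ratios and shares rest on the exon lengths used.

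In the deposited values Clec7a, the β-glucan receptor, was the only one of the 10 that was highest at 0 h. With equal library totals Clec4a2 and Clec4a3 were also highest at 0 h. Clec7a was at 2390 at 0 h (3716 reads), 1035 at 2 h (474 reads) and 1136 at 4 h (2090 reads), which was 0.433-fold (0.393 to 0.477) and 0.475-fold (0.450 to 0.501) the 0 h value, or 2.31-fold and 2.10-fold lower. With median centring it was lower by less than 2-fold, at log2 changes of -0.89 and -0.70. Clec5a, the DAP12-coupled receptor, was at 338, 808 and 818, 2.39-fold at 2 h (2.09 to 2.74) and 2.42-fold at 4 h (2.19 to 2.68), so its 2 h and 4 h values were alike within counting error (ratio 1.01, 0.903 to 1.14). With equal totals the folds of Clec5a were 1.51 and 1.37.

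The DCIR group and Clec12a stayed within 2-fold of their 0 h values at both times in the deposited values, apart from Clec4a1, although Clec12a was past 2-fold at 4 h with median centring (log2 change 1.32) and Clec4a3 at 2 h with equal totals (-1.21). Clec4a1 was at 983, 1435 and 3443, 3.50-fold higher at 4 h (3.31 to 3.71), most of it after 2 h, and its 2 h direction turned with equal totals, to a log2 change of -0.12. Clec4a2, which encodes DCIR, was at 1379, 1618 and 2102, 1.52-fold at 4 h (1.45 to 1.61), and both its changes turned with equal totals, to -0.43 and -0.22. Clec4a3 was at 1428, 974 and 1787, 0.682-fold at 2 h (0.615 to 0.755) and 1.25-fold at 4 h (1.19 to 1.32), and the 4 h direction turned with equal totals, to -0.50. Clec12a, which encodes MICL, was at 3269, 4134 and 6323, 1.26-fold at 2 h and 1.93-fold at 4 h (1.87 to 2.00), and its 2 h direction turned with equal totals, to -0.32. Clec2d was at 1247, 3007 and 4008, 2.41-fold at 2 h (2.25 to 2.58) and 3.21-fold at 4 h (3.06 to 3.38). With equal totals the folds of Clec2d were 1.52 and 1.82.

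Counted together, 4 of the 10 receptors were at least 2-fold higher at 2 h (Clec4e, Clec4d, Clec5a and Clec2d) where 20.5% of all 17854 genes were, and 1 was at least 2-fold lower (Clec7a) where 24.7% of all genes were. At 4 h, 5 were at least 2-fold higher (the same 4 and Clec4a1) against 22.2% of all genes, and 1 was lower (Clec7a) against 23.6%. From 2 h to 4 h, 2 were at least 2-fold higher (Clec4e and Clec4a1) against 17.9%, and 1 was lower (Clec4n) against 15.2%. The median log2 change of the receptors was 0.76 at 2 h and 1.11 at 4 h, beside -0.05 and -0.04 over all genes. With equal library totals the median over all genes moved to -0.68 and -0.81, and only Clec4e stayed at least 2-fold higher at each time, where 13.7% and 13.1% of all genes were, while 2 receptors were at least 2-fold lower at 2 h (Clec7a and Clec4a3) and 2 at 4 h (Clec7a and Clec4n), where 39.9% and 43.9% of all genes were. Of all genes changed at least 2-fold at 4 h, 48.5% were higher in the deposited values, 22.9% with equal totals and 63.5% with median centring. At 2 h these shares were 45.4%, 25.5% and 58.2%.

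By 4 h the order per kb of exon was Clec4e at 7407, Clec4d at 6743, Clec2d at 3304, Clec4a1 at 2210, Clec4a3 at 1347, Clec12a at 1144, Clec4a2 at 718, Clec7a at 431, Clec4n at 389 and Clec5a at 213. Clec4e had moved from position 9 to the top and Clec7a from position 4 to position 8, while Clec5a was the lowest at every time. These positions rest on the exon lengths used, and by the longest transcript Clec4d was at the top at 4 h. In the deposited values the sum over the 10 receptors was 7882 per kb at 0 h, 16481 at 2 h and 23904 at 4 h. With equal library totals each receptor's ratio to its 0 h value is smaller, and so is the rise of this sum.

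In the AAV experiment, Clec7a and Clec5a rose in AAV-Shisa3 BMDMs and the other 8 receptors did not pass the test. The test was limma's moderated test with a mean-variance trend, run on log2(TPM + 1) for the 11218 genes that averaged 1 TPM or more, and an adjusted p (Benjamini-Hochberg) under 0.05 was called. It called 2 of the 10 receptors higher, where 2.23% of all genes were called higher, and 0 lower, where 4.1% of all genes were called lower, 6.33% in both directions together. At an unadjusted p under 0.05, 5 receptors were higher, where 8.21% of all genes were, and 2 were lower, where 19.8% were, by limma. The calls of Clec7a and Clec5a were lost when any single sample was left out (adjusted p 0.0998 to 0.173 and 0.0926 to 0.176).

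Clec7a stood at 36.52 and 46.25 TPM with AAV-GFP and at 82.13 and 108.89 TPM with AAV-Shisa3. Both AAV-Shisa3 samples stood above both AAV-GFP samples, and the means were 41.4 ± 6.88 and 95.5 ± 18.9 TPM (SD, n = 2). Its log2 fold change was 1.18 (SE 0.17, 95% interval 0.76 to 1.60, adjusted p = 0.0249 by limma), which ranked 64 among the 11218 genes. Under the settings that kept all 4 samples its adjusted p ran from 0.0071 to 0.141.

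Clec5a was at 19.7 and 22.37 TPM in AAV-GFP and at 41.25 and 35.1 TPM in AAV-Shisa3. The groups did not overlap, and the SD was 1.89 TPM in AAV-GFP and 4.35 TPM in AAV-Shisa3 (n = 2). Its log2 fold change was 0.83 (SE 0.12, 95% interval 0.53 to 1.13, adjusted p = 0.0257 by limma), and its adjusted p ran from 0.0158 to 0.124 under the settings that kept all 4 samples. Clec5a remained the lowest of the 10 receptors in both groups.

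**Figure D2:**
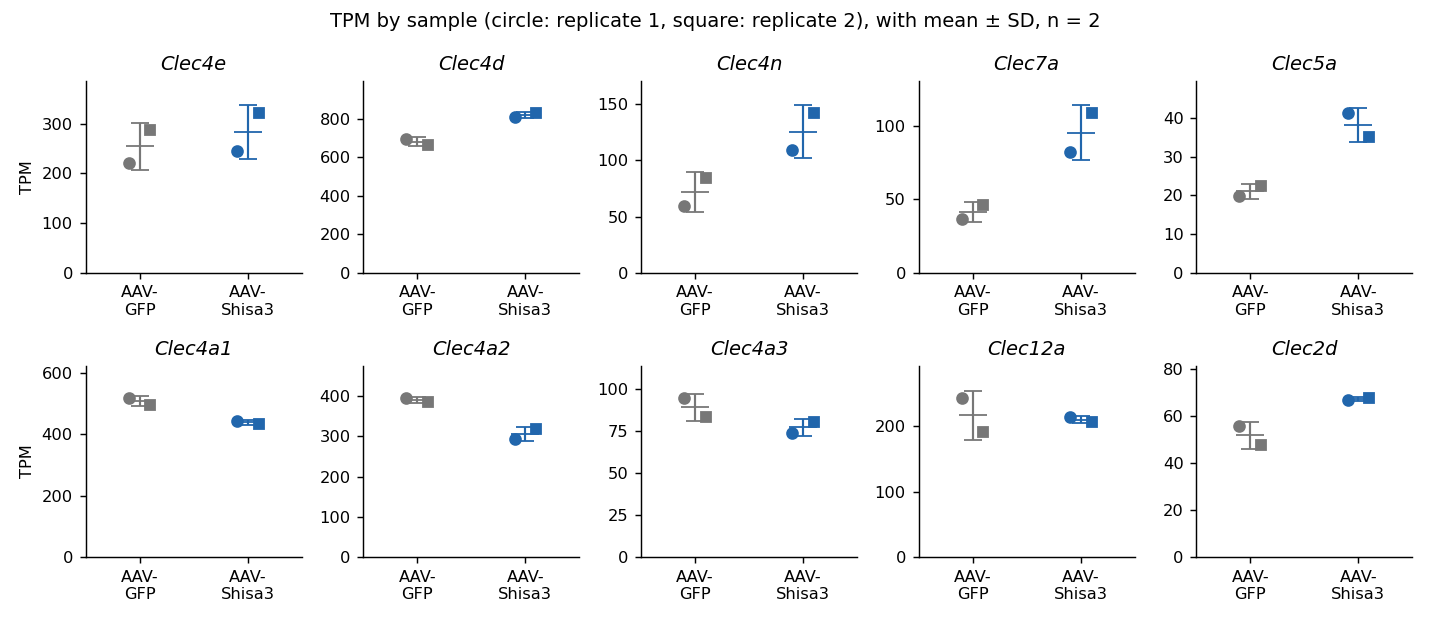
TPM of the 10 receptors (vertical axes from 0, each with its own range) in the 2 AAV-GFP samples (grey) and the 2 AAV-Shisa3 samples (blue), with circles for replicate 1, squares for replicate 2 and bars for the mean ± SD (n = 2). The groups are apart for 8 of the receptors, 5 with AAV-Shisa3 above (18.2% of all genes tested) and 3 with it below (41.2%), and overlap for Clec4e and Clec12a.

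The FcRγ-coupled receptors did not pass the threshold. Clec4n, which encodes Dectin-2, was at 59.33 and 84.2 TPM in AAV-GFP and at 109.09 and 142.1 TPM in AAV-Shisa3. Its groups did not overlap, and its log2 fold change of 0.81 (SE 0.20, 95% interval 0.32 to 1.29) had an adjusted p of 0.0694 by limma. That p ran from 0.0129 to 0.231 under the other settings that kept all 4 samples. Clec4d was the most abundant receptor in all 4 samples, at 698.79 and 667.11 TPM in AAV-GFP and at 808.51 and 831.76 TPM in AAV-Shisa3. Its values were close within each group, and its log2 fold change was 0.26 (SE 0.068, 95% interval 0.095 to 0.43, limma adjusted p = 0.0778). Clec4e was at 220.77 and 288.36 TPM in AAV-GFP and at 244.56 and 321.63 TPM in AAV-Shisa3. In each group replicate 2 was the higher, and the spread within groups exceeded the difference between them (log2 fold change 0.15, SE 0.17, 95% interval -0.28 to 0.58, limma adjusted p = 0.602). Its sign turned when AAV-GFP replicate 1 or AAV-Shisa3 replicate 2 was left out, to -0.040 and -0.045.

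The 3 genes of the DCIR group were each lower in both AAV-Shisa3 samples than in both AAV-GFP samples, and 0 passed the test by limma, while Clec4a1 and Clec4a2 had an unadjusted p under 0.05 (0.0230 and 0.0036). Clec4a2 was at 394.94 and 384.4 TPM in AAV-GFP and at 292.76 and 318.02 TPM in AAV-Shisa3, a log2 fold change of -0.35 (SE 0.075, 95% interval -0.54 to -0.17, adjusted p = 0.0525 by limma, 0.0393 to 0.159 under the other settings with all 4 samples). Clec4a1 was at 518.62 and 495.35 TPM in AAV-GFP and at 444.23 and 432.43 TPM in AAV-Shisa3 (log2 fold change -0.21, SE 0.068, limma adjusted p = 0.122). Clec4a3 was at 94.65 and 83.2 TPM in AAV-GFP and at 73.52 and 80.45 TPM in AAV-Shisa3 (log2 fold change -0.20, SE 0.098, limma adjusted p = 0.236). Such a separation is common here, since 41.2% of all genes tested had both AAV-Shisa3 samples below both AAV-GFP samples and 18.2% had both above, and the median log2 fold change over all genes was -0.10. For the 10 receptors that median was 0.21.

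Clec12a and Clec2d completed the group. Clec12a was at 243.17 and 190.42 TPM in AAV-GFP and at 213.52 and 205.82 TPM in AAV-Shisa3, so the AAV-Shisa3 samples lay between the AAV-GFP samples. Its log2 fold change was -0.04 (SE 0.12, 95% interval -0.34 to 0.27, limma adjusted p = 0.867), and it turned to 0.078 with median centring. Clec2d was at 55.92 and 47.89 TPM in AAV-GFP and at 66.82 and 67.87 TPM in AAV-Shisa3, with no overlap (log2 fold change 0.37, SE 0.10, 95% interval 0.13 to 0.62, limma adjusted p = 0.0842).

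TPM is scaled by transcript length, so the receptors could be ordered within a sample. In AAV-GFP the order from the top was Clec4d, Clec4a1, Clec4a2, Clec4e, Clec12a, Clec4a3, Clec4n, Clec2d, Clec7a and Clec5a, and the samples of Clec4e and Clec12a and those of Clec4a3 and Clec4n overlapped. In AAV-Shisa3, Clec4n and Clec7a stood above Clec4a3, and the samples of Clec4a2 and Clec4e overlapped. Clec4d, Clec4e and Clec4n together gave 979 and 1040 TPM in AAV-GFP and 1162 and 1295 TPM in AAV-Shisa3, while the 3 DCIR-group genes gave 1008 and 963 TPM and then 811 and 831 TPM. The sum over all 10 was 2342 and 2310 TPM in AAV-GFP and 2376 and 2544 TPM in AAV-Shisa3. In bulk RNA, more cells of a type and more RNA per cell cannot be told apart.

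Granulocyte markers moved with the AAV groups as well. The 10 markers of neutrophils and their precursors summed to 682 and 672 TPM in AAV-GFP and to 1188 and 786 TPM in AAV-Shisa3. Of the 9 tested, 8 were higher in both AAV-Shisa3 samples, as were 18.2% of all genes, and 2 passed the test as higher, as did 2.23% of all genes: Camp (log2 fold change 1.14) and Ngp (1.02), both of which encode granule proteins. The highest of them, S100a9, was at 346.89, 311.64, 601.62 and 361.4 TPM in the order AAV-GFP 1, AAV-GFP 2, AAV-Shisa3 1 and AAV-Shisa3 2. Ly6g, the defining marker of mature neutrophils, was at 0.10 to 0.29 TPM. The marker sum, most of it S100a8 and S100a9, was the highest in AAV-Shisa3 replicate 1. Of the single markers, Mpo and Elane were the highest in AAV-Shisa3 replicate 2, Csf3r in AAV-GFP replicate 2 and the others in AAV-Shisa3 replicate 1. Clec5a was the highest in AAV-Shisa3 replicate 1, and Clec7a, Clec4n, Clec4d, Clec4e and Clec2d in AAV-Shisa3 replicate 2. The macrophage markers summed to 8343 and 8388 TPM in AAV-GFP and to 8816 and 8576 TPM in AAV-Shisa3, with 1 of 8 called, Cd14, which rose by a log2 fold change of 0.78 (limma, adjusted p = 0.0153). In the LPS libraries the granulocyte sum was 6022, 14318 and 16110 at 0 h, 2 h and 4 h in deposited values, of which Csf3r, the gene of the G-CSF receptor, gave 1277, 4337 and 9064. Of the 10 markers 6 were at least 2-fold higher and 0 lower at 2 h (20.5% and 24.7% of all genes), and 1 higher and 2 lower at 4 h (22.2% and 23.6%). From 2 h to 4 h, 1 was at least 2-fold higher and 4 lower (17.9% and 15.2%), with a median log2 change of -0.73. The dendritic cell markers summed to 78.5, 221 and 491 in the LPS libraries. Of these 8, 6 were at least 2-fold higher and 1 lower at 2 h, and 5 higher and 1 lower at 4 h. Many of these folds rest on few reads, such as 0, 1 and 3 for Itgae and 2, 0 and 8 for Xcr1, while Ccr7 held 20, 29 and 483. The fibroblast markers summed to 464, 904 and 1038, with 2 of 5 at least 2-fold higher at each time and 0 lower, and the macrophage markers to 86751, 136331 and 117640. The part of these markers in the receptor results was not tested.

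Set side by side, the experiments put the receptors in 3 groups by sign. Clec4e, Clec4d, Clec5a and Clec2d were higher at 4 h of LPS and had a positive log2 fold change in AAV-Shisa3, although that of Clec4e turned in 2 of the 4 fits that left out a sample. Clec4a1, Clec4a2, Clec4a3 and Clec12a were higher at 4 h and had a negative one, although with equal totals Clec4a2 and Clec4a3 were lower at 4 h and with centring, or without AAV-GFP replicate 1 (0.14), Clec12a was positive in AAV-Shisa3. Clec7a and Clec4n were lower at 4 h and had a positive one, although with centring Clec4n was higher at 4 h. Clec4e had the highest log2 change of the 10 at 4 h, 5.98, and 0.15 in AAV-Shisa3, while Clec7a had the lowest at 4 h, -1.07, and the highest in AAV-Shisa3, 1.18. The lowest in AAV-Shisa3 was that of Clec4a2, -0.35.

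**Figure D3:**
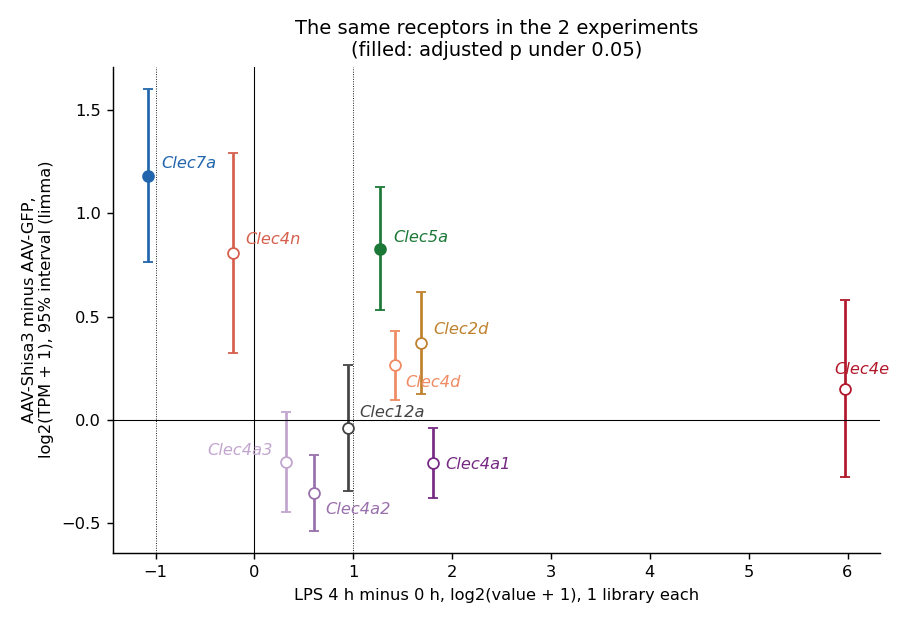
Each of the 10 receptors by its log2(value + 1) change at 4 h of LPS (horizontal axis, 1 library per time point, dotted lines at 2-fold) and its log2(TPM + 1) change in AAV-Shisa3 over AAV-GFP (vertical axis, with limma's 95% interval, n = 2 per group). Clec4e lies far to the right near 0 on the vertical axis, Clec7a lies at the upper left at -1.07 and 1.18, and the filled points, Clec7a and Clec5a, are those with an adjusted p under 0.05; with equal totals Clec4a2 and Clec4a3 lie left of 0, with centring Clec4n lies right of it and Clec12a above 0.

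By the distance over 3 log2 changes (2 h and 4 h of LPS and AAV-Shisa3), among 10532 genes tested in both tables, the genes most like Clec4e were Gm5345 (distance 0.32), Gbp2, which encodes an interferon-inducible GTPase (0.38), and Gfi1, which encodes a transcriptional repressor (0.40). For Clec12a they were Tmem106a (0.02), Chmp5 (0.053) and Ttc19 (0.063). The nearest of the other 9 receptors to Clec4e was Clec2d at a distance of 5.29, while Clec4d and Clec2d were 0.37 apart and Clec4a2 and Clec12a 0.48 apart. Clec7a had no close neighbour among the receptors, the nearest being Clec4a3 at 2.07.

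The genes that carry the signal of these receptors were read from the same fits. Of 22 adaptors, kinases and phosphatases, all tested, 9 were at least 2-fold higher and 3 at least 2-fold lower at 4 h of LPS, against 22.2% and 23.6% of all genes, and the median log2 change was 0.83. With equal totals these counts were 5 and 6, against 13.1% and 43.9% of all genes. At 2 h, 9 were higher and 0 lower, against 20.5% and 24.7% of all genes. The kinase gene Src was 44.3-fold higher at 4 h, at 75.9, 2926 and 3361 over the time course, and Malt1, the protease that acts downstream of CARD9, was 35.8-fold higher, at 445, 10078 and 15936. The Src-family kinase genes Fgr and Lyn were 6.04-fold and 5.89-fold higher. In the other direction, Inpp5d, which encodes the inhibitory lipid phosphatase SHIP1, was at 4868, 2697 and 334, or 0.0687 of its 0 h value at 4 h, and Vav2, an exchange factor gene, was at 422, 393 and 88.0. Card9 was the third of those lower at 4 h, at 1169, 651 and 328. With equal totals the log2 changes at 4 h were 4.63 for Src, 4.34 for Malt1, 1.77 for Fgr, 1.73 for Lyn, -4.68 for Inpp5d and -3.07 for Vav2.

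In AAV-Shisa3, 2 of the 22 rose and 3 fell by limma, where 2.23% of all genes were called higher and 4.1% lower, and their median log2 fold change was -0.08 beside -0.10 over all genes. Hcst, the gene of the DAP10 adaptor used by Clec5a, was at 18.19 and 18.98 TPM in AAV-GFP and 32.13 and 33.16 TPM in AAV-Shisa3 (log2 fold change 0.78, limma adjusted p = 0.0196). Fgr was at 35.92 and 40.84 TPM and then 55.96 and 66.74 TPM (0.66, limma adjusted p = 0.0377). Card9 fell from 47.64 and 47.19 TPM to 33.9 and 34.18 TPM (-0.47, limma adjusted p = 0.0347), and it was also the lower at 4 h of LPS. Vav2 fell from 17.63 and 17.76 TPM to 7.65 and 9.59 TPM (a change of -0.97, limma adjusted p = 0.0238), and Vav3 fell from 11.84 and 12.65 TPM to 7.48 and 8.12 TPM (-0.59, limma adjusted p = 0.0465). None of these 5 calls held when any single sample was left out, and with median centring 1 of the 3 falls passed.

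**Figure D4:**
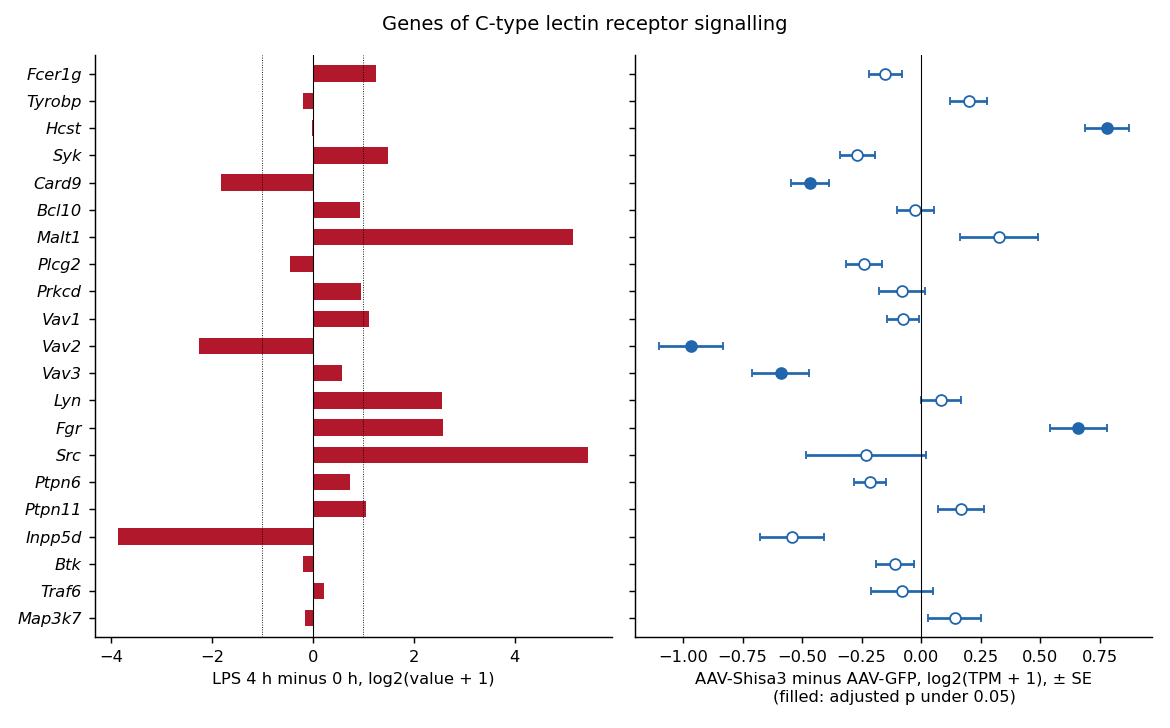
Genes of the signalling list, all but 1 of the 22, with their log2(value + 1) change at 4 h of LPS (left, red bars, 1 library per time point, dotted lines at 2-fold) and their log2(TPM + 1) change in AAV-Shisa3 over AAV-GFP (right, points with SE, n = 2 per group, filled where the adjusted p is under 0.05). Src and Malt1 reach beyond 5 under LPS and Inpp5d lies at -3.86, while the filled points are Hcst and Fgr above 0 and Card9, Vav2 and Vav3 below it.

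Other genes with a C-type lectin domain gave a wider frame. Of 63 listed, 62 were in the tables, 37 passed the minimum in the LPS table and 18 in the AAV table. At 4 h of LPS 11 of the 37 were at least 2-fold higher and 10 lower, against 22.2% and 23.6% of all genes, with a median log2 change of -0.32, and with equal totals 20 were lower, where 43.9% of all genes were. Those furthest from 0 included the selectin genes Sele, with 0, 53 and 145 reads over the time course (deposited values 0, 116 and 78.8), and Selp, with 1 read at 0 h and a ratio of 127 at 4 h (22.4 to 5038). Cd69, which encodes an early activation marker, was 66.0-fold and 69.3-fold higher at the 2 times, Olr1, the gene of the oxidised LDL receptor LOX-1, 56.8-fold and 7.76-fold, and Vcan, the gene of the proteoglycan versican, 19.1-fold and 49.2-fold. Klra2 was 19.8-fold and Pla2r1 14.5-fold higher at 4 h, and Thbd, the thrombomodulin gene, was at 0.0907 of its 0 h value. With equal totals the log2 changes at 4 h were 5.28 for Cd69, 2.03 for Olr1, 4.79 for Vcan, 3.40 for Klra2, 2.85 for Pla2r1 and -4.21 for Thbd. In AAV-Shisa3, 3 of the 18 rose and 2 fell by limma, against 2.23% and 4.1% of all genes. Olr1 rose from 0.84 and 1.69 TPM to levels of 5.85 and 7.69 TPM (log2 fold change 1.79, limma adjusted p = 0.0233), Cd69 from 14.07 and 15.34 TPM to 58.52 and 41.4 TPM (1.68, limma adjusted p = 0.0174) and Clec10a, a receptor for terminal galactose sugars, from 2.2 and 1.73 TPM to 4.16 and 5.03 TPM (0.92, limma adjusted p = 0.0443). Cd93 fell from 83.85 and 89.0 TPM to 55.53 and 54.01 TPM (-0.65, limma adjusted p = 0.0206) and Thbd from 12.61 and 12.96 TPM to 7.72 and 6.22 TPM (-0.80, limma adjusted p = 0.0343). Only the call of Cd69 held in any fit that left out a single sample, and it did so in 1 of 4.

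In chromosome order, the receptors and these relatives are interleaved. Cd69 lies directly after Clec2d and Olr1 directly after Clec7a, and these flanking genes carried the largest positive log2 fold changes of the 2 stretches in AAV-Shisa3. In the first stretch the genes at the left end, Clec4a1, Clec4a3 and Clec4a2, had negative log2 fold changes in AAV-Shisa3, and the genes at the right end, Clec4n, Clec4d and Clec4e, had positive ones, though that of Clec4e turned without single samples. Clec4a4, Clec4b1 and Clec4b2, which lie among them, held 4 to 73 reads per LPS library, so their folds rest on few reads. Clec4b1 was tested in the AAV samples and was at 13.37 and 13.56 TPM and then 15.09 and 14.4 TPM (log2 fold change 0.12, limma adjusted p = 0.476).

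**Figure D5:**
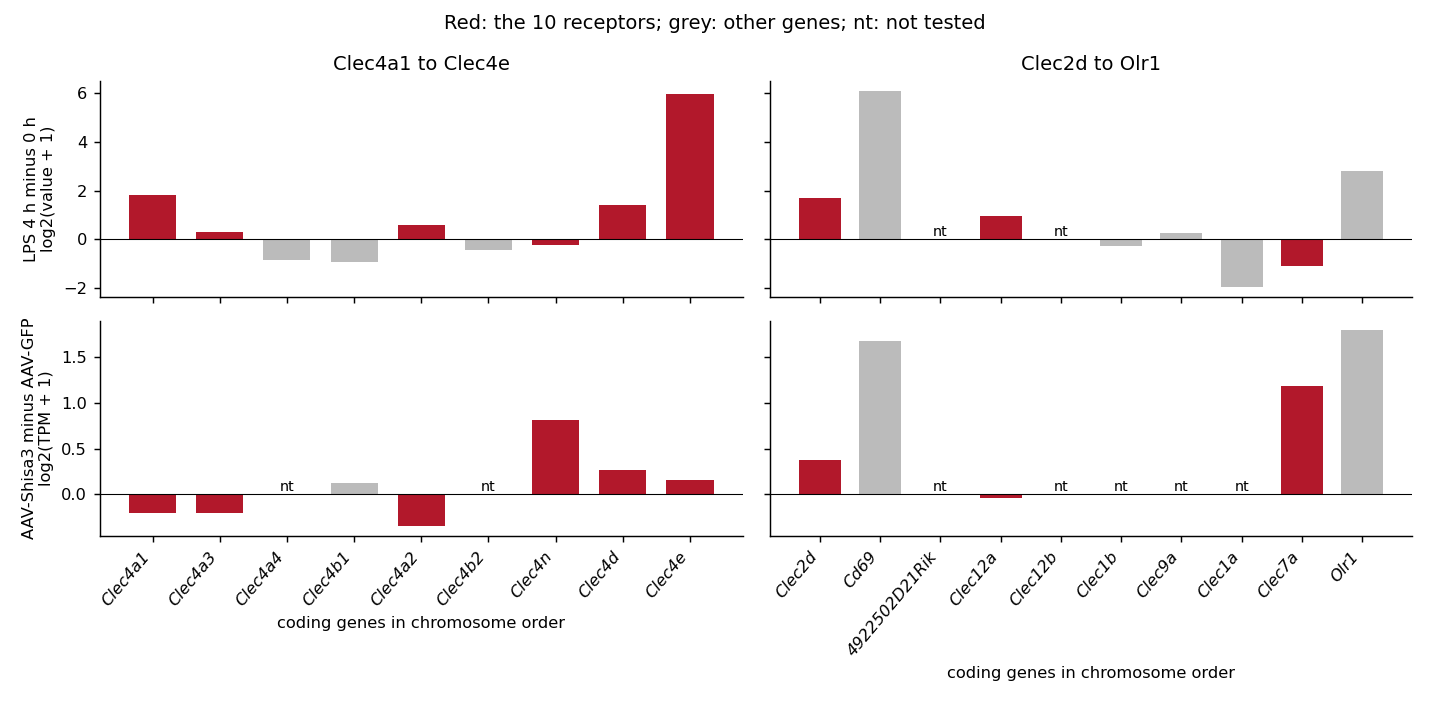
Coding genes in chromosome order in the stretch from Clec4a1 to Clec4e (left) and from Clec2d to Clec7a with Olr1 beside it (right), as log2(value + 1) change at 4 h of LPS (top) and log2(TPM + 1) change in AAV-Shisa3 over AAV-GFP (bottom); red bars are the receptors, grey bars other genes and nt a gene not tested. Clec4e at 5.98 and Cd69 at 6.10 have the tallest bars under LPS, and Clec7a points down under LPS and up in AAV-Shisa3; with equal totals Clec4a2 and Clec4a3 point down under LPS, and with centring Clec4n points up under LPS and Clec12a up in AAV-Shisa3.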

How the data were processed

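RNA was sequenced as paired-end reads of 150 bp. The labels list the build mm9 in the submitters' processing notes; aligner, annotation and counting program are not given in the sources used here. For the LPS libraries the deposited signal of a gene is its reads over a library-wide factor. All values were whole multiples of the value of 1 read (100%, tolerance 0.01 reads), so reads were recovered. No count model could be fitted with 1 library per time point. Intervals are exact binomial (95%) and cover counting error only. For the AAV samples the authors' deposited columns each total 999778 to 999818 and were read as TPM, a unit inferred from the values. Log2 fold changes used a pseudocount of 1, so that folds of weakly expressed genes come out too small, and genes with a mean of at least 1. AAV groups were compared with limma 3.58.1 in R 4.3.3 over all genes, and the smallest exact permutation p for 2 against 2 samples is 0.333. TMM factors came from edgeR 4.0.16.

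Exon lengths and positions were taken from GENCODE M21 (GRCm38), which held 99.2% of the gene identifiers of the LPS table and 96.4% of the symbols of the AAV table; start sites and promoter sequence came from RefSeq (GRCm38.p6). The tables were normalised separately, so levels were compared only within a table. The receptors and lists were chosen with earlier results of these data known. All 10 receptors are named; from the signalling and lectin lists, genes past the AAV threshold or past 4-fold under LPS, up to 8 per list; from each marker list, the highest; for Clec4e and Clec12a, the 3 nearest genes. The value of 1 gene of the signalling list is not reported here. Other marker and flanking genes, the lower Card9 under LPS among them, were named after their values were seen. Alternatives were the pseudocount, the filter, centring, equal library totals, TMM factors, limma without its trend, the replicate block and leaving out each sample.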

Additional observations from a re-analysis of the deposited data

How the results depend on the processing

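Calls in the AAV experiment depended on the spread model. Without limma's trend 1 gene was higher and 4 were lower among all genes (250 and 460 in the fit reported; 811 and 2148 at an unadjusted p under 0.05), and with no filter on low values 0 and 0 (1118 and 2411 at an unadjusted p under 0.05); in both, 0 of the receptors, of the signalling genes and of the other lectin genes were called in either direction. Centring on the sample median gave 410 higher and 230 lower genes, with 1 signalling gene and 1 other lectin gene lower. Without single replicates 0 to 27 genes were higher and 0 to 7 lower, 0 receptors and 0 signalling genes were called, and 0 to 1 other lectin genes were higher and 0 lower; the lone sample of a group was assumed to vary like the others. At an unadjusted p under 0.05, 4 to 5 receptors were higher and 1 to 2 lower in each of these fits, where 5.49% to 14.7% of all genes were higher and 10.5% to 19.1% lower. Clec4e turned to -0.040 without AAV-GFP replicate 1 and to -0.045 without AAV-Shisa3 replicate 2 (up to 0.35 without AAV-Shisa3 replicate 1), and Clec12a to 0.14 without AAV-GFP replicate 1 (down to -0.21 without AAV-GFP replicate 2) and to 0.078 with centring. Requiring at least 1 TPM in every sample added 1 lower receptor, Clec4a2 (adjusted p = 0.0399), and let Clec4n pass (0.0472), with 325 genes higher and 617 lower of 10508; centring also let Clec4n pass (0.0482). The replicate numbers were not taken as pairs: the labels name no shared mouse or day, and same-numbered samples had a correlation of 0.188 in their deviations over 2 pairs. With the replicate block 424 genes were higher and 851 lower, 3 receptors were higher, with Clec4n (adjusted p = 0.0129) beside Clec7a and Clec5a, and 1, Clec4a2, was lower (adjusted p = 0.0393).

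For LPS, equal library totals left 1 receptor at least 2-fold higher and 2 lower at 2 h, and 1 and 2 at 4 h, with 5 signalling genes higher and 6 lower and 20 other lectin genes lower at 4 h. It turned Clec4a1 (-0.12), Clec4a2 (-0.43) and Clec12a (-0.32) at 2 h and Clec4a2 (-0.22) and Clec4a3 (-0.50) at 4 h. Median centring left 0 receptors at least 2-fold lower at 2 h and 0 at 4 h, gave 5 higher at 2 h (with Clec4n, 1.29) and 6 at 4 h (with Clec12a, 1.32), where 26.9% and 29.6% of all genes were higher and 19.3% and 17.0% lower, and turned Clec4n at 4 h (0.16) and Vav2 at 2 h (0.21). The cause of these changes was not tested. Of 350 recomputed LPS log2 changes of single named genes, 328 kept their direction and side of the 2-fold line, 10 no longer passed it, 5 newly passed it and 7 turned. The 2 h library is the shallowest, and folds of genes with few reads at 0 h are the least precise.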

Other observations

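The TPM ratio of Clec7a to Clec4a2 was 0.0925 and 0.120 in the AAV-GFP samples and 0.281 and 0.342 in the AAV-Shisa3 samples, and that of Clec4e to Clec4d was 0.316 and 0.432 and then 0.303 and 0.387, with the groups overlapping.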
